A study of Mus musculus with 4 samples.

Results

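The genes described here are the subunits of the transcription factor NF-kB and the inhibitors that it switches on to restrain itself. They were taken as every probe set that the array's annotation gives to 1 of 10 symbols and to no other gene. This found 18 of the 45101 probe sets, for 9 of the 10 genes (Nfkb2, Rel, Rela, Relb, Nfkbia, Nfkbie, Nfkbiz, Tnfaip3 and Bcl3). Nfkb1 was not analysed here, since no probe set met the rule for it.

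Expression was measured in 4 groups, with 1 array for each. B cells of the germinal centre (GC), sorted as B220+PNA+Fas+, and naive B cells, sorted as B220+PNA-Fas-, came from Peyer's patches (PP) of untreated adult C57BL6/J wild type mice. The same 2 populations were sorted from peripheral lymph nodes (pLN) of C57BL6/J wild type mice given TNP-KLH in incomplete Freund's adjuvant, so tissue and immunisation cannot be told apart. RNA of 3 to 5 mice was pooled for each array, which leaves 1 value per group. The variation between mice is averaged within a pool and cannot be estimated.

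NF-kB is a family of dimers. Rela and Rel carry domains that activate transcription and act in the canonical route, which antigen receptor and Toll-like receptor signals open. Relb pairs with the p52 product of Nfkb2 in the slower non-canonical route that CD40 and BAFF receptors use. Inhibitors of the IkB family, Nfkbia (IkB alpha) and Nfkbie (IkB epsilon), hold dimers in the cytoplasm until IkB kinases mark them for destruction. Bcl3 and Nfkbiz (IkB zeta) are nuclear relatives that alter what bound dimers do, and Tnfaip3 (A20) edits ubiquitin chains upstream of the kinases. Many of these genes are themselves NF-kB targets. In germinal centres, NF-kB activity is best known in the light zone cells that are selected through CD40.

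The promoter windows of these genes are shown because matches to the NF-kB binding consensus were frequent in them. Of 32851 promoter windows of 300 bases in the RefSeq table (GRCm38.p6, 250 bases before to 50 after a start site), 4.51% held a match to the NF-kB consensus on either strand, and 8 of the 10 windows of these genes did. Nfkb2 has 3 windows, of which the second and the third overlap and share a match, so 1 site is counted in 2 of the 8. Those 8 windows belong to 6 of the 7 genes matched in the table (Nfkb2, Rel, Nfkbia, Nfkbie, Tnfaip3 and Bcl3, with Rela holding none). For 5 genes whose signals are followed below, the window of the first listed start site is printed 5′ to 3′, with consensus matches in capitals:
Nfkb2 (chr19:46304487-46304786, + strand): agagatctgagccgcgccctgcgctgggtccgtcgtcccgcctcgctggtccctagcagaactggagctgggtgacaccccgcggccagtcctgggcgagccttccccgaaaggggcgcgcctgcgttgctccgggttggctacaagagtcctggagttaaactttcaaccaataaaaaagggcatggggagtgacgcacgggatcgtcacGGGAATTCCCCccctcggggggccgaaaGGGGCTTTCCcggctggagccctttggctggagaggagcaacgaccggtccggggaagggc
Bcl3 (chr7:19822706-19823005, - strand): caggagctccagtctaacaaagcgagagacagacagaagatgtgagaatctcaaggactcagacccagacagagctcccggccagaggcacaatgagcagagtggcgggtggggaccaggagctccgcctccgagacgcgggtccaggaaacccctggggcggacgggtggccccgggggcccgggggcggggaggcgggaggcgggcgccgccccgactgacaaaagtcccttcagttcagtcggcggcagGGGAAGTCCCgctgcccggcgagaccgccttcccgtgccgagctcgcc
Nfkbie (chr17:45555450-45555749, + strand): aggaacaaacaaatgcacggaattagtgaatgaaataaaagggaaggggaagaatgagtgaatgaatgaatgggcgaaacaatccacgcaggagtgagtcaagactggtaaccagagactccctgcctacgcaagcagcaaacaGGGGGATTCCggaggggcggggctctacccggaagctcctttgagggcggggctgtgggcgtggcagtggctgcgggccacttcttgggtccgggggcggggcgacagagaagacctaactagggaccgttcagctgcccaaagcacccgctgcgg
Nfkbia (chr12:55492598-55492897, - strand): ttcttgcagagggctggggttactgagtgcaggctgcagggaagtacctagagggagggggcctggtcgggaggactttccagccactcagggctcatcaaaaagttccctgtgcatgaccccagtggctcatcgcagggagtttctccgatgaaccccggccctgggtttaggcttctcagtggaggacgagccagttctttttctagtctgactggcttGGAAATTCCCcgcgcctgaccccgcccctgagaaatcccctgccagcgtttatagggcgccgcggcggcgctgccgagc
Tnfaip3 (chr10:19015361-19015660, - strand): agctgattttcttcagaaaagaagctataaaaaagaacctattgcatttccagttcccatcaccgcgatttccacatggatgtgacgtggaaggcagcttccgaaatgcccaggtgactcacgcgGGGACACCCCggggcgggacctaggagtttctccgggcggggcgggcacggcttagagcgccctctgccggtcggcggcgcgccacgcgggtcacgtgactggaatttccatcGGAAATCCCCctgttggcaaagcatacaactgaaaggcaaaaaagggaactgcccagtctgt
The printed Nfkb2 window holds 3 matches, of which GGGAATTCCC and GGAATTCCCC overlap, and the third, GGGGCTTTCC, lies from base -11 to -2 relative to the start site. In Bcl3 the match GGGAAGTCCC lies just inside the transcript, from base 3 to base 12. The Nfkbia window holds GGAAATTCCC from base -29 to -20, and the Nfkbie window GGGGGATTCC from base -106 to -97. Tnfaip3 has GGGACACCCC from base -125 and GGAAATCCCC from base -12, and its other window holds 0 matches. A match describes the letters only and was not measured as binding.

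GC B cells had lower signals of Bcl3, Nfkbie, Rela and 1 of 2 Nfkb2 probe sets and higher signals of Tnfaip3 and of 1 of 3 Nfkbiz probe sets, in both tissues. Rel and Relb did not differ beyond the error, and the 5 probe sets of Nfkbia disagreed. The decreases were not called when the arrays were scaled to spike-in controls, as described below. Of the 18 probe sets, 17 were above the detection level on all 4 arrays and 1, of Tnfaip3, was above it on none. The signals are scaled intensities in arbitrary units. The detection level is the 90th percentile of probe sets of genes of other tissues, and it was 39.8 on GC PP, 51.8 on GC pLN, 107 on naive PP and 63.3 on naive pLN. Among the 17 tested, limma called 6 lower in GC cells (35.3%) and 2 higher (11.8%) at an adjusted p under 0.05, and 9 were not called. Over all 23364 tested probe sets, 17.1% were lower and 32.7% higher. The median log2 difference, GC minus naive, was -0.29 over the 17 and 0.39 over all tested probe sets. With the fit limited to the 16052 probe sets above the level on all 4 arrays, as these 17 are, the median of all was -0.06. In that fit limma called 3783 of the 16052 lower and 3816 higher, and 6 and 4 of the 17. With 1 probe set per gene, the brightest, 4 of 9 genes were lower and 1 higher, against 23.2% lower and 23.6% higher of 10281 genes.

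The 2 cell types also differed in array measures that bear on each of these values. The 3'/5' signal ratio of the Gapdh control, which is low for intact RNA, was 1.67 on GC PP and 1.48 on GC pLN, against 96.4 on naive PP and 18.7 on naive pLN. Spike-in controls of bacterial and phage sequence (9 probe sets) had median signals of 3071 on GC PP and 3217 on GC pLN, against 11565 on naive PP and 4588 on naive pLN. When the arrays were scaled to these spike-ins instead of to their trimmed means, 5 of the 17 probe sets were higher and 0 lower by limma. Of all 23364 tested probe sets, 11168 were then called higher and 186 lower, and their median difference was 1.80. Bright probe sets leaned towards naive cells: the median log2 difference was -0.68 in the brightest eighth of tested probe sets and 1.08 in the dimmest. In the brightest eighth 35.5% were called lower and 9.07% higher, and 7 of the 17 NF-kB probe sets lay there. The part of the 3' bias in the results was not tested. B cell markers were present on every array, with 4 of 4 above the level. Of the 4, limma called 1 lower in GC cells (Cd79a, -1.40 ± 0.49, adjusted p = 0.0299) and 0 higher. All 7 GC markers were above the level on both GC arrays and 6 of them were called higher, and 5 of 5 naive markers were called lower. Fas, 1 of the 6, was an antigen of the sort, so its difference was selected for. Bcl6 was the GC marker not called (0.79 ± 0.43, limma adjusted p = 0.145). Summed signals of the 11 macrophage markers were 4503 and 3328 in GC cells of PP and pLN, against 1433 and 1201 in naive cells, and those of the 5 plasma cell markers 22115 and 18223, against 2787 and 6347. Of the tested markers, 2 of 4 for macrophages and 3 of 5 for plasma cells were called higher in GC cells and 0 lower. Apoe made up most of the macrophage sum in GC cells, at 3561 and 2528 in PP and pLN, against 492 and 304 in naive cells. Lyz2 was the other macrophage marker called higher, and Cd68 also read higher in GC cells. C1qb, Adgre1, Csf1r and Mertk read higher in naive cells of both tissues, some of them under the level. The 10 T cell markers summed to 1310 and 742 in GC cells of PP and pLN, against 743 and 1330 in naive cells. The 6 dendritic cell markers summed to 1893 and 1320, against 275 and 641. Flt3 made up most of that sum in GC cells, at 1231 and 1083, against 14.3 and 71.3 in naive cells. Zbtb46 also read higher in GC cells of both tissues, while Itgax and Siglech read higher in GC cells of PP and lower in those of pLN. The part of such cells was not tested.

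**Figure D1:**
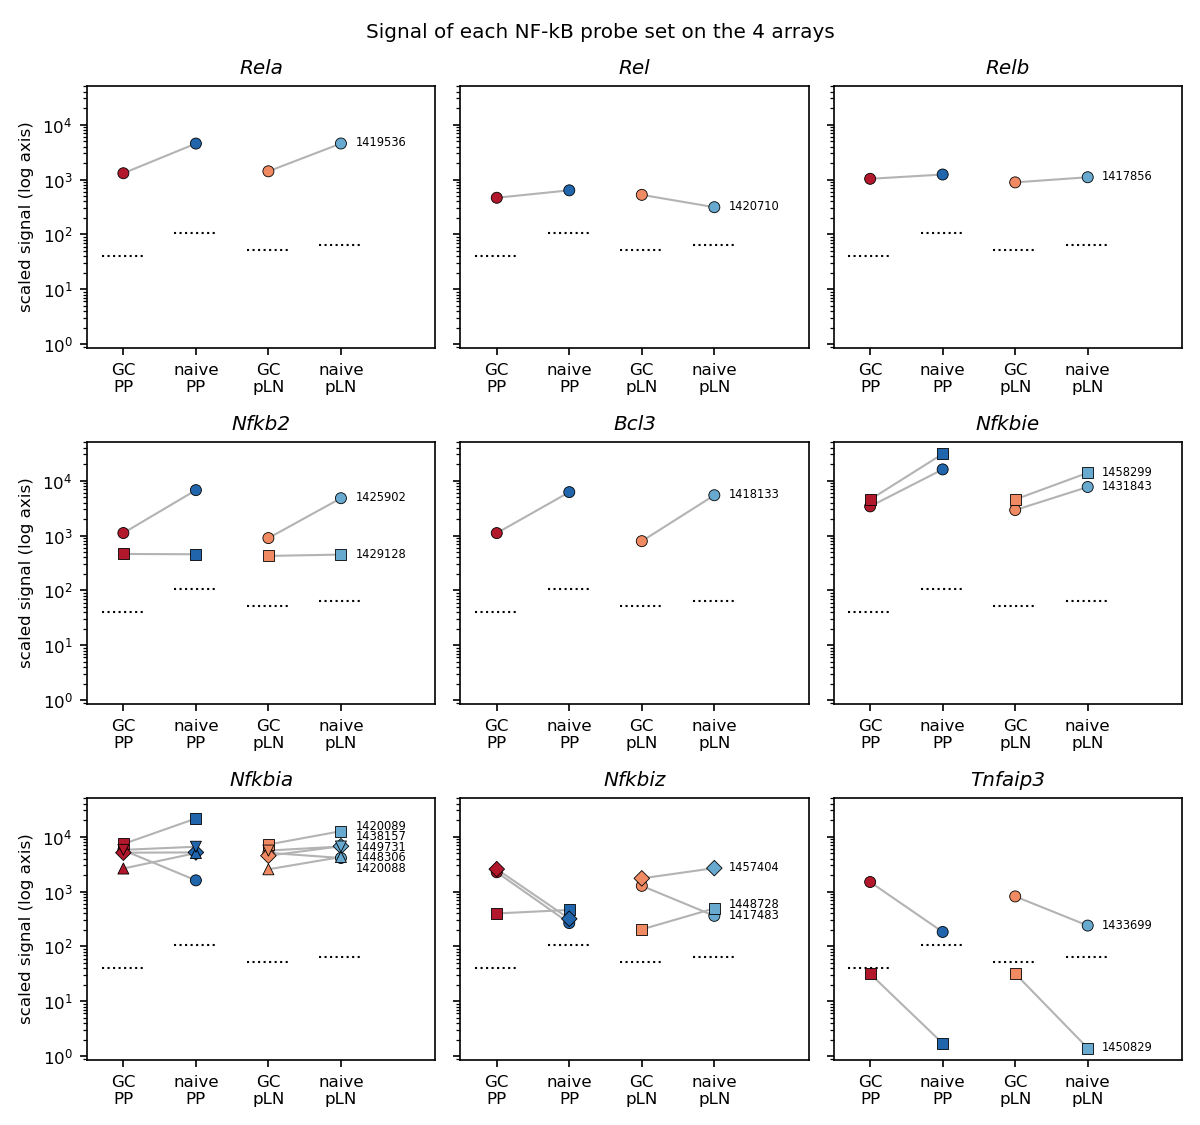
Scaled signal (vertical log axis) of each NF-kB probe set on the 4 arrays, with 1 panel per gene and grey lines joining GC and naive cells of a tissue. Dotted lines mark the detection level of each array, numbers give the probe set without its suffix, and Bcl3, Rela and Nfkbie slope up towards naive cells in both tissues while Tnfaip3 slopes down.

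Among the DNA-binding subunits, Rela and the brighter probe set of Nfkb2 were lower in GC cells. Rela, the main activating subunit of the canonical route, had signals of 1302 and 1412 in GC cells of PP and pLN, against 4524 and 4538 in naive cells of PP and pLN. Both naive signals were above both GC signals, and the tissues gave nearly the same values. The log2 difference was -1.73 ± 0.42 (limma's moderated SE, adjusted p = 0.00124), or 3.34-fold lower in GC cells as a ratio of signals. In pooled sorted cells, fewer cells that express a gene and less RNA per cell cannot be told apart. The call was lost without GC pLN or without GC PP, where the highest adjusted p was 0.0999 at a similar size (from -1.79 to -1.67 over the 4 arrays left out in turn, fitted without the block). With an array left out, the other array of its cell type was assumed to vary like the 2 arrays of the other cell type, and the variance shared over all probe sets entered as before.

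Nfkb2, which encodes the p100 precursor of p52, read 1111 and 899 in GC cells of PP and pLN with probe set 1425902_a_at, against 6721 and 4791 in naive cells. The groups did not overlap, and the log2 difference was -2.49 ± 0.42 (adjusted p = 2.04e-05), or 5.68-fold lower. The other probe set, 1429128_x_at, read 461 and 425 in GC cells, against 456 and 450 in naive cells, a difference of -0.03 ± 0.44. The suffix x marks probes that can bind related transcripts. The 2 probe sets of Nfkb2 therefore gave different pictures, of which only the brighter carries the decrease.

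Rel, which encodes c-Rel, read 465 in GC cells against 635 in naive cells of PP, and 526 against 313 in pLN. The 2 tissues pointed in opposite directions, and the mean difference of 0.14 ± 0.45 was not called (adjusted p = 0.809). Relb, the partner of p52, read 1031 and 888 in GC cells of PP and pLN, against 1234 and 1101 in naive cells. Its difference of -0.28 ± 0.42 was smaller than its error (adjusted p = 0.593), and the 4 signals lay within a narrow range.

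Bcl3, a nuclear IkB relative that works with p50 and p52 homodimers, had the lowest mean difference of the 17 tested probe sets, although in PP alone Nfkbie 1458299_s_at (-2.76) and Nfkb2 1425902_a_at (-2.58) stood below it (-2.47). It read 1108 and 789 in GC cells of PP and pLN, against 6186 and 5426 in naive cells. The difference was -2.62 ± 0.42 (adjusted p = 1.08e-05), or 6.20-fold lower, and was past 5-fold in each tissue (5.59-fold in PP and 6.87-fold in pLN). Bcl3 and the called Nfkb2 probe set kept their call with each array left out in turn, the highest adjusted p being 0.0253 for Bcl3 and 0.028 for Nfkb2. Scaled to the spike-ins, they stood at -1.12 for Bcl3 and -0.99 for Nfkb2 and were not called (adjusted p = 0.245 and 0.302, limma).

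Nfkbie was lower in GC cells by both probe sets. Probe set 1458299_s_at read 4519 and 4541 in GC cells of PP and pLN, against 30742 and 13909 in naive cells, and 1431843_a_at read 3398 and 2915, against 16050 and 7670. The GC values of the 2 tissues were close, while the naive PP values were 2.21-fold and 2.09-fold above naive pLN. The log2 differences were -2.19 ± 0.48 (adjusted p = 0.000475) and -1.81 ± 0.45 (adjusted p = 0.00161). Both calls were lost without GC pLN or without GC PP, with adjusted p up to 0.0754 and 0.13. Both probe sets lay in the brightest eighth of the table, where the median difference was -0.68.

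Nfkbia, the IkB that restores the inhibited state soonest after a signal, was bright on every array by 5 probe sets that did not move together. Probe set 1420089_at read 7356 and 7198 in GC cells of PP and pLN, against 21432 and 12589 in naive cells, and was called lower at -1.17 ± 0.48 (adjusted p = 0.0429). Probe set 1420088_at read 5670 and 5085 in GC cells, against 1599 and 4089 in naive cells, and stood at 1.07 ± 0.45 with an adjusted p of 0.05 that was not under the threshold. The first fell and the second stood higher, so neither gives the gene a direction. The only probe set with a listed accession, 1448306_at, read 2627 and 2544 in GC cells, against 5027 and 4256 in naive cells (-0.84 ± 0.43, adjusted p = 0.104). Probe sets 1438157_s_at and 1449731_s_at differed by -0.29 ± 0.45 and -0.22 ± 0.45. On the GC arrays each of the 5 read nearly the same in PP and pLN, with PP over pLN ratios from 1.02 to 1.13, while on the naive arrays the ratios ran from 0.391 to 1.70. The call of 1420089_at was lost with quantile normalization, after cyclic loess, without the filter on dim probe sets and without GC PP or GC pLN, with adjusted p up to 0.74, and with spike-in scaling the value turned to 0.33. The call of 1420088_at was gained under 8 of 16 alternatives, among them quantile normalization, cyclic loess and spike-in scaling.

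Tnfaip3, the ubiquitin-editing enzyme A20, was higher in GC cells. Probe set 1433699_at read 1490 and 815 in GC cells of PP and pLN, against 183 and 239 in naive cells. Both GC signals exceeded both naive signals, and the difference was 2.33 ± 0.45 (adjusted p = 0.000104), or 5.26-fold higher. It was 8.14-fold in PP and 3.40-fold in pLN. Without GC PP the difference was 1.90 and the call was lost (adjusted p = 0.0754). A second probe set, 1450829_at, read 31.7 and 31.9 in GC cells, against 1.71 and 1.40 in naive cells, all under the detection level, so no fold is given for it.

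Nfkbiz, an inducible nuclear IkB, had 3 probe sets with 3 patterns. Probe set 1417483_at read 2246 and 1270 in GC cells of PP and pLN, against 266 and 360 in naive cells, and rose by 2.40 ± 0.44 (adjusted p = 5.32e-05), or 5.45-fold. This call too was lost without GC PP, where the difference was 1.99 (adjusted p = 0.0582). Probe set 1457404_at read 2559 in GC cells against 319 in naive cells of PP, and 1738 against 2670 in pLN. It was thus 8.03-fold higher in PP and 1.54-fold lower in pLN, and its mean of 1.17 ± 0.53 was not called (adjusted p = 0.0655). It gained a call under 6 of 16 alternatives and turned to -0.34 without naive PP. Probe set 1448728_a_at read 399 and 204 in GC cells, against 462 and 493 in naive cells, a difference of -0.72 ± 0.45 (adjusted p = 0.189). It was called lower with quantile normalization (-1.28, adjusted p = 0.0341) and after cyclic loess (-1.30, adjusted p = 0.0102), stood at 0.74 with spike-in scaling and at -0.25 without GC pLN. The call of 1417483_at and that of Tnfaip3 held under all 4 other scalings.

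**Figure D2:**
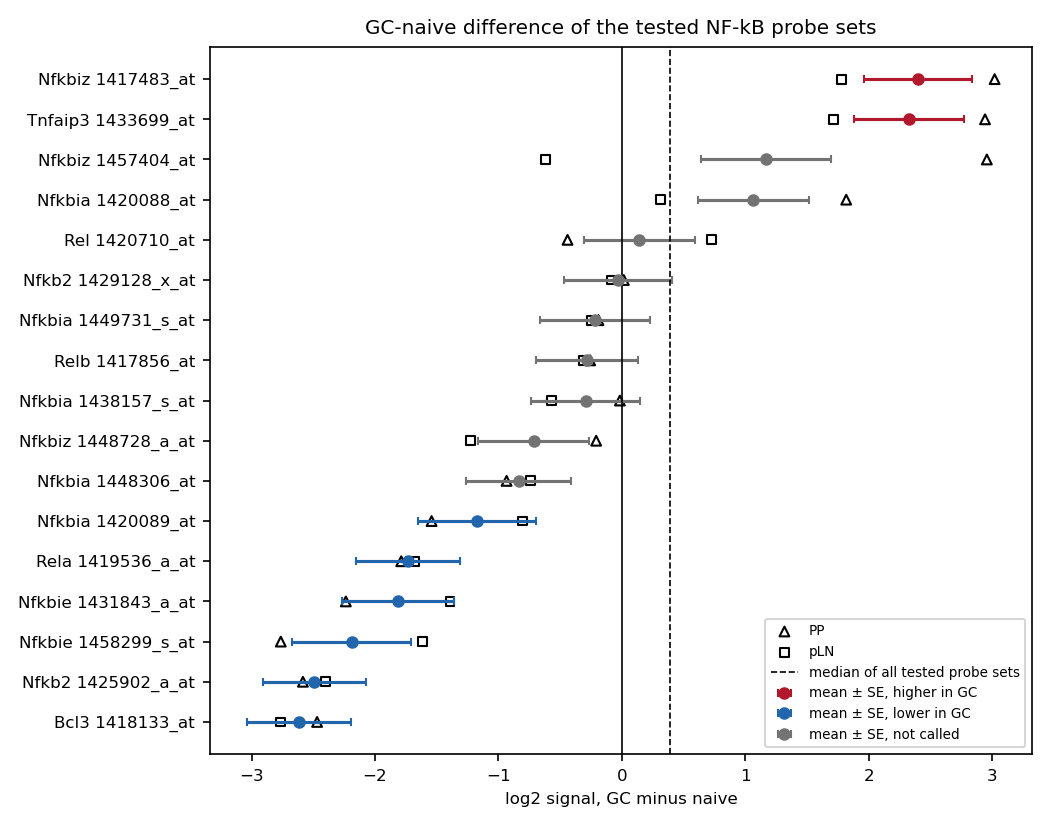
Log2 difference in signal, GC minus naive (horizontal axis), of the 17 tested probe sets, ordered by size. Filled circles are means over the 2 tissues with the limma SE, open triangles PP and open squares pLN. The dashed line is the median of all tested probe sets at 0.39, which was -0.06 among those above the level on all 4 arrays. Bcl3 and the Nfkb2 probe set 1425902_a_at stand lowest at -2.62 and -2.49.

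Both GC signals lay below both naive signals for 11 of the 17 probe sets and above them for 3, and 3 overlapped. Over all tested probe sets these shares were 30.4% below and 47.6% above. Unlike the 17, these include probe sets that were above the level only in GC or only in naive cells. Most of the 17 are bright, with 7 in the brightest eighth of all tested probe sets and 4 in the next eighth, where 35.5% and 22% of all probe sets were called lower.

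The scaling of the arrays set how many probe sets were called. Under the deposited scale, quantile normalization and cyclic loess, 6 of 17 probe sets were lower in each case, and 2, 3 and 4 were higher. In the same order, 4669 of all 23364, 4942 of 23362 and 5145 of 23929 probe sets were lower, and 7099, 5784 and 6676 higher. The 6 were not the same throughout: with quantile normalization and cyclic loess Nfkbia 1420089_at was not among them (adjusted p = 0.487 and 0.74) and Nfkbiz 1448728_a_at was. Under the spike-in scale, Bcl3, Nfkb2 1425902_a_at, both Nfkbie probe sets and Rela remained below 0 but were not called, while Nfkb2 1429128_x_at stood at 1.43. The differences of Nfkbiz 1417483_at and Tnfaip3 were larger, 3.86 and 3.77. The other Nfkbiz probe sets stood at 2.64 (1457404_at) and 0.74 (1448728_a_at). Bcl3 and Nfkb2 1425902_a_at stood lowest of the 17, and Nfkbiz 1417483_at and Tnfaip3 highest, under each of the 5 scalings.

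**Figure D3:**
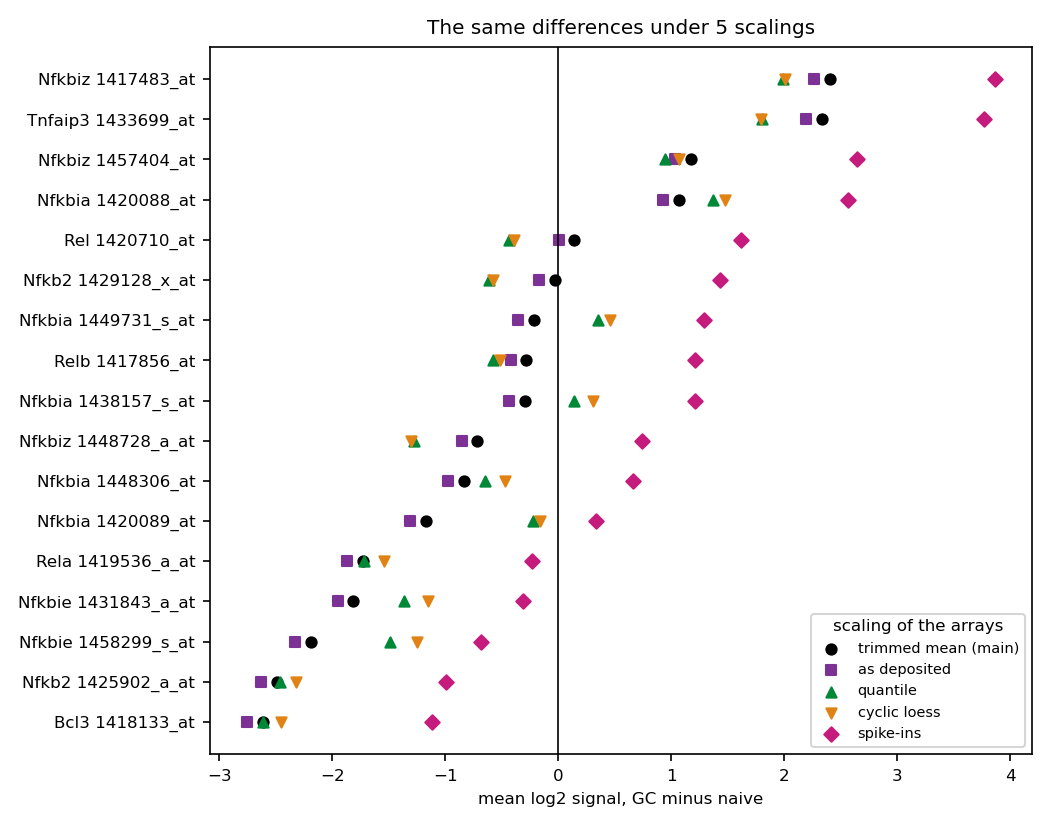
Mean log2 difference in signal, GC minus naive (horizontal axis), of the same 17 probe sets under 5 ways of scaling the arrays. Spike-in scaling moves every probe set to the right, so that Rela stands at -0.23 and Bcl3 at -1.12, while the other scalings stay closer to the trimmed mean values.

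Between tissues, the count of differences in GC cells was near the background. Of 17 probe sets above the level, 0 were 2-fold higher and 0 were 2-fold lower in GC cells of PP than of pLN, where 5.88% of 25717 probe sets were higher and 1.52% lower. Among the 16052 probe sets above the level on all 4 arrays, as these 17 are, 262 were higher and 205 lower. The largest ratios were those of Nfkbiz and Tnfaip3, 1.95 (1448728_a_at), 1.83 (1433699_at) and 1.77 (1417483_at). With 1 array per group none of these was tested. In naive cells, 2 probe sets were 2-fold higher in PP, both of Nfkbie, and 2 were lower, Nfkbia 1420088_at (1599 against 4089) and Nfkbiz 1457404_at (319 against 2670, 8.38-fold lower). The background was 9.97% higher and 17.6% lower of 21701. Rel in naive cells, at 635 in PP against 313 in pLN, was 2.03-fold higher as a ratio and 0.99 on the log2 scale with the offset. The naive PP array also had the highest 3'/5' ratio, and its 7 gut epithelium markers summed to 3836 against 1292 on naive pLN (6 and 3 of 7 above the level). In GC cells these markers summed to 1766 in PP and 520 in pLN (7 and 1 of 7 above the level). The 8 stromal and follicular dendritic cell markers summed to 983 and 514 in GC cells of PP and pLN, against 1264 and 399 in naive cells. Their part in the results was not tested.

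Patterns over 4 arrays were compared with those of other genes for 3 members, over the brightest probe sets of 8420 other genes above the level on all arrays. Rel was nearest to Uxs1 (Euclidean distance 0.068 between centred log2 signals) and Taf5l (0.077). Tnfaip3 was nearest to Trio (0.196) and Chrnb1 (0.198). Nfkbia, by probe set 1420089_at, was nearest to Ubn2 (0.046) and to the 3' control probe set of Gapdh (0.048), which read 10781 and 10457 in GC cells of PP and pLN, against 31610 and 17780 in naive cells. Likeness over 4 values is a description only.

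Other genes of the pathway moved in both directions. Of 50 tested genes on 4 lists, 14 were lower in GC cells and 10 higher, with a median difference of -0.45 against -0.04 over all tested genes. These medians were -0.28 against -0.22 with quantile normalization and -0.20 against -0.15 after cyclic loess. Of all genes, 23.2% were lower and 23.6% higher, so these counts are near the background. Scaled to the spike-ins, 1 of the 50 was lower (Sharpin) and 14 were higher, against 96 lower and 3572 higher of all 10284 genes. Left out in turn and fitted without the block, GC PP or GC pLN each ended the calls of Birc2, Ebi3, Ikbkb, Itch, Rnf11, Tbk1 and Tnip1 below (adjusted p from 0.0536 to 0.279).

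Of 10 IkB kinases and other IkB proteins, 4 were lower, 1 higher and 5 not called, with a median difference of -0.57. Map3k14 (NIK), the kinase that starts the non-canonical route, read 390 and 469 in GC cells of PP and pLN, against 1907 and 1867 in naive cells (-2.11 ± 0.39, adjusted p = 0.000864). Its groups did not overlap, though another of its probe sets differed by -0.26. Ikbkb, the kinase that phosphorylates IkB, fell by 2.05 on the log2 scale, with probe sets from -2.05 to -0.17. Tbk1, a related kinase of innate signalling, rose by 1.12. Ikbke and Nfkbib were the other 2 lower genes.

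Of 11 tested TRAF, cIAP and LUBAC genes, 5 were lower and 2 higher. Sharpin, a subunit of LUBAC, the complex that builds linear ubiquitin chains, read 5721 and 5372 in GC cells of PP and pLN, against 52227 and 19509 in naive cells (-2.52 ± 0.51, adjusted p = 0.00166). Rnf31, the catalytic subunit of LUBAC, read 908 and 1026, against 6889 and 4264 (-2.47 ± 0.39, adjusted p = 0.000303). With spike-in scaling Sharpin was still called (-1.02, adjusted p = 0.00757), Rnf31 was not (-0.98), and without GC pLN Sharpin had an adjusted p of 0.0511. Rnf31 has 1 tested probe set, and the 2 of Sharpin were both lower, at -2.52 and -1.21. Tank, a TRAF-binding adaptor, was higher by 2.69 ± 0.42, but its other probe set stood at -0.11, and Birc2 (cIAP1) was higher by 1.45 ± 0.42.

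Of 9 A20 partners and deubiquitinases, 2 were lower, 2 higher and 5 not called. Tnip1 (ABIN1), which brings A20 to ubiquitin chains, differed by -1.50 ± 0.41 and was called lower, with 1839 and 1555 in GC cells of PP and pLN, against 3382 and 6845 in naive cells. Tax1bp1, Itch and Rnf11 are described as members of an A20 complex in human and mouse cells. Tax1bp1 was called lower by its brightest probe set (-2.10), while another stood at 3.51 and the mean of all its probe sets was 0.08. Itch was higher by 1.68 and Rnf11 by 1.52, with every tested probe set of each above 0. Rnf11 read 541 and 484 in GC cells of PP and pLN, against 90.01 and 312 in naive cells, so only 1 of the 2 naive arrays measured it above the level. It lost its call under 7 of 17 alternatives, among them quantile normalization (adjusted p = 0.0984), cyclic loess (adjusted p = 0.0875) and the fit without the block (adjusted p = 0.0784), and stood at 0.69 without naive PP.

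Among 20 tested genes known as NF-kB targets, 5 were higher, 3 lower and 12 not called, with a median difference of 0.09. Rgs1, a regulator of G protein signalling, read 5355 and 283 in GC cells of PP and pLN, against 93.2 and 26.4 in naive cells, both under the level. With the naive signals set at the level it was at least 15.0-fold higher over both tissues, at least 50.1-fold in PP and at least 4.47-fold in pLN. The log2 difference was smaller without GC PP, at 2.21, and the call was lost there (adjusted p = 0.0541) and without naive pLN (adjusted p = 0.0772). Cd44, an adhesion receptor, was higher by 2.66 ± 0.43, with its other probe sets from 0.95 to 3.00. Ccr7, the receptor for T zone chemokines, read 588 and 375 in GC cells of PP and pLN, against 6848 and 3840 in naive cells (-3.41 ± 0.37, adjusted p = 2.68e-05), and Ebi3, a cytokine subunit, fell by 1.46 but stood at 0.023 with spike-in scaling. The list median was -0.04 on the deposited scale and 1.54 with spike-in scaling, against -0.18 and 1.41 over all tested genes. Ccr7 also stands on the list of naive markers, and targets of NF-kB have other regulators.

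**Figure D4:**
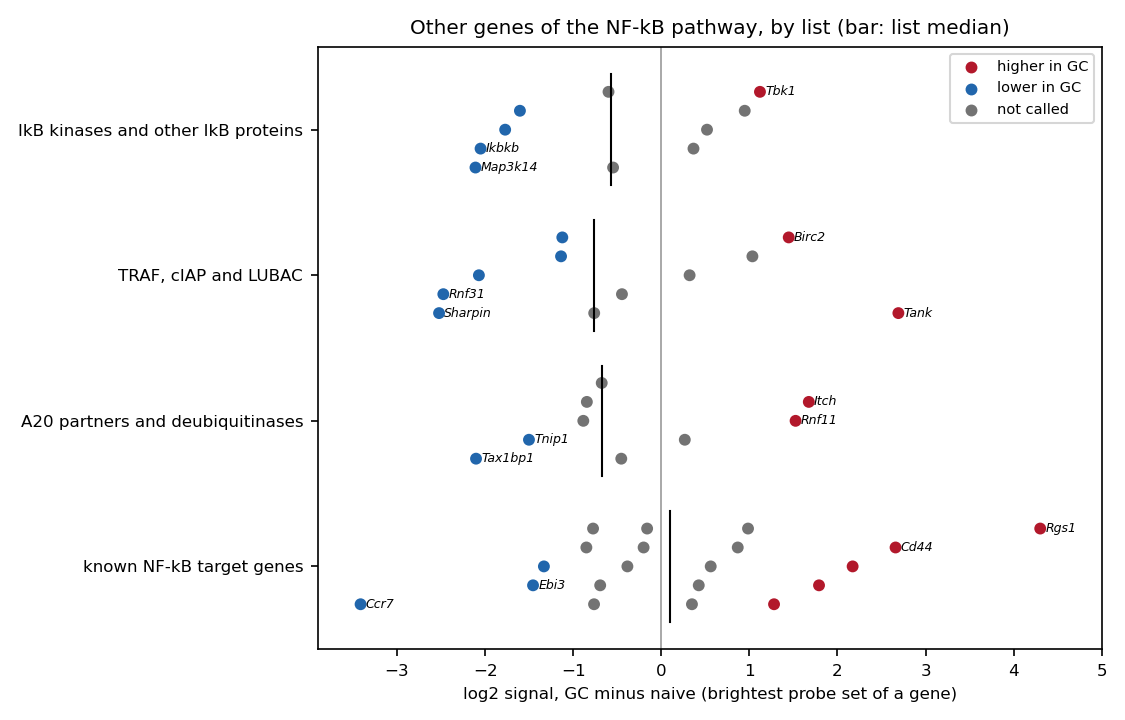
Log2 difference in signal, GC minus naive (horizontal axis), of 50 tested genes of 4 pathway lists, 1 point per gene by its brightest probe set. Red points were called higher in GC cells (10), blue points lower (14) and grey points not called (26), black bars are list medians, and the points of each list lie on both sides of 0.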

How the data were processed

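RNA of sorted B cells was hybridised as biotinylated cRNA to 4 single-colour Affymetrix arrays, and GCOS made the signals, per the submitters' processing notes, without version or scaling target. The deposited intensities are linear, and every array has a median of 1, so each is read as divided by its array's median. The trimmed mean of each array (2% off each end) was set to 500. A list of 50 measured genes of other tissues (82 probe sets) gave the offset, 12.2 (its median signal), added before log2, and the detection level. Depth on arrays is signal over background, and 4 arrays limit the precision.

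The GC-naive contrast was fitted in R 4.3.3 with limma 3.58.1 over every probe set that passed the level on the 2 arrays of GC or of naive cells. Tissue was the block, the prior variance followed intensity, and p-values were adjusted by the Benjamini-Hochberg method. There was 1 residual degree of freedom with a prior of 28.7, so errors and p-values rest mostly on the variance shared over all probe sets, and no group has a replicate array. The test was run on simulated data, which does not show that its error rate holds for these arrays. Of the probe sets, 34958 had 1 symbol, 932 several and 9211 were not listed. Identifiers of 34754 matched RefSeq, which changed 0 symbols. Log2 differences are on the log2(signal + offset) scale, folds are ratios of signals over geometric means of the tissues.

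Members, lists and tests were chosen with earlier results of these data known. Another gene list is not reported here. Named pathway genes are the 2 highest and 2 lowest called of each list. The 3 pattern genes were Rel, Nfkbia and Tnfaip3. Alternatives covered scaling, offset, filter, level, block, trend, probe set choice, fold and each array left out.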

Additional observations from a re-analysis of the deposited data

Results flagged for a closer look

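For 3 of the 17 tested probe sets the difference between GC and naive cells had opposite signs in the 2 tissues, and these differences between tissues were not tested. Nfkbiz 1457404_at stood at 2.96 in PP against -0.62 in pLN, a gap of 3.57 on the log2 scale with signals of 2559 against 319 in PP and 1738 against 2670 in pLN (GC against naive). Rel stood at -0.44 in PP against 0.73 in pLN, a gap of -1.16. Nfkb2 1429128_x_at stood at 0.016 in PP against -0.08 in pLN, a gap of 0.096, which is below the error of its mean.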

How the results depend on the processing

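Over 272 recomputed differences of single probe sets, 219 kept their direction and side of the threshold, 18 lost and 19 gained a call, and 16 changed sign. The counts of probe sets called were 6 lower and 2 higher. Spike-in scaling gave 0 lower and 5 higher (genes 0 and 2), with a median difference of 1.21, and quantile normalization a median of -0.58. With spike-in scaling 11168 of all 23364 probe sets were higher, with a median of 1.80. Higher probe sets numbered 4 after cyclic loess, with an offset of 100, with a level required on all 4 arrays and with signals floored at the level. Higher genes numbered 2 on the deposited scale, with an offset of 100, with the level required on all 4 arrays and with floored signals. Leaving out 1 array in turn, fitted without the block, gave 2 to 8 lower and 0 to 4 higher probe sets, 2 to 5 lower and 0 to 2 higher genes, and medians from -0.48 to -0.20. The fewest higher (0) came without GC PP and the fewest lower (2) without GC PP or GC pLN, and over all probe sets the number lower then was 856 and 939 against 4006, and 186 with spike-in scaling. In naive cells, the probe sets 2-fold higher in PP numbered 0 on the deposited scale, with spike-ins and at 3-fold, and 1 with quantile normalization and cyclic loess. Those lower numbered 8 with spike-ins, where 12162 of all 21701 probe sets were lower, and 1 at 3-fold, where 1476 of all were. Changes of sign were, with spike-in scaling, Relb 1.21, Nfkb2 1429128_x_at 1.43, Nfkbiz 1448728_a_at 0.74 and Nfkbia 0.33 (1420089_at), 1.21 (1438157_s_at), 0.66 (1448306_at) and 1.29 (1449731_s_at). With quantile normalization they were Rel -0.43 and Nfkbia 0.14 (1438157_s_at) and 0.35 (1449731_s_at), and after cyclic loess Rel -0.40 and Nfkbia 0.31 and 0.46. With 1 array left out, Rel ran from -0.35 (without naive pLN) to 0.64, Nfkb2 1429128_x_at from -0.089 to 0.026 (without GC pLN) and Nfkbiz 1457404_at from -0.34 (without naive PP) to 2.68. Among pathway genes, Ebi3 was 0.023 with spike-in scaling, and Tax1bp1 0.079 with the mean of all its probe sets. The causes were not tested. GC and naive arrays were paired by tissue, and the fit without the tissue block called 6 lower and 2 higher probe sets.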
